A study of Arabidopsis thaliana with 8 samples.

Results

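The nuclear genes for subunits of photosystem I and photosystem II, for the soluble and membrane carriers between them, and for the chloroplast ATP synthase were followed through long heat and recovery in Arabidopsis seedlings. They were chosen by locus identifier, as named subunits and carriers, and not by their measured values, but with earlier results of these data known. All 33 were found among the 64512 loci of the table, of which 33323 are gene loci, and all 33 passed the filter on low values (a mean of at least 1 over the libraries). They comprise 12 genes of photosystem I, 11 of photosystem II, 7 electron carriers and 3 genes of the ATP synthase.

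RNA was measured by strand-specific sequencing of total RNA in whole wild-type seedlings of the ecotype Columbia, labelled as 7 d old, with 2 libraries in each of 4 groups. CTRL seedlings are the controls. LHS seedlings, for long heat stress, were kept at 37 °C for 30 h, and no recovery is given for them. LHSR12 and LHSR84 seedlings had the same heat and then 12 h or 84 h at 22 °C. The growth light and the hour and age at harvest are not given, so effects of heat, recovery, plant age and hour of harvest cannot be told apart. Nothing in the labels ties a library to its own culture or batch of plants, and the p-values cover only the spread between these libraries, which may be technical.

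In the light reactions, photosystem II takes electrons from water and passes them through plastoquinone and the cytochrome b6f complex to plastocyanin. Photosystem I lifts them from plastocyanin to ferredoxin, from which ferredoxin-NADP reductase (FNR) makes NADPH, while the ATP synthase uses the proton gradient across the thylakoid membrane. The reaction centre proteins are encoded in the chloroplast, and the nucleus supplies many of the outer, stromal and lumenal subunits, often from a pair of related genes. Photosystem II is known as a heat-sensitive part of this chain.

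Depth was between 18.89 M and 28.34 M reads (M for 1e6) at gene loci in the 7 libraries whose reads could be recovered, and LHS replicate 1 has no read count. Values are given as scaled reads, which are reads divided by a factor for the library, in the order replicate 1 and replicate 2 of a group. A log2 fold change is the difference of group means of log2(scaled reads + 1), and a gene is called when its limma p, adjusted over the 27638 loci tested, is below 0.05. The CTRL libraries differed from each other in these genes, with 32 of 33 higher in replicate 1 and a median ratio of 1.37, against 1.16 over all gene loci tested. In the other groups that median lay between 0.899 and 0.992.

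At the end of heat 32 of the 33 genes were lower than in CTRL and 1, the ferredoxin gene FD1, was higher. Over all loci tested, 31.1% were called lower and 35.4% higher in this comparison. The median log2 fold change of the 33 was −2.25, beside 0.09 over all loci, and the median gene stood at 20.6% of its CTRL mean. After 12 h of recovery 31 were lower and FD1 was higher, with PSBS not called, against 20.0% of all loci lower and 24.8% higher. The median log2 fold change was then −1.58, beside 0.08 over all loci, and the median level 33.2% of CTRL.

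After 84 h of recovery 20 of the 33 genes were still called lower than in CTRL, 1 was higher (FD1) and 12 were not called. Over all loci 4.87% were lower and 8.59% higher. The median of the 33 was −0.82, beside 0.00 over all loci, and the median level 56.2% of CTRL. By group means, 14 genes stood under 50% of CTRL and 8 at 80% or more. The number called lower after 84 h moved most when libraries were left out, from 11 without LHSR84 replicate 1 and 13 without LHSR84 replicate 2 to 24 without CTRL replicate 2. Without LHSR84 replicate 1 the calls of PSAE2, PSAH1, PSAL, PSBO1, PSBW, PSBY, PSBTN, FNR2 and ATPD were lost, and without LHSR84 replicate 2 those of these genes other than PSAL and PSBW. The calls of PSBTN and FNR2 were lost without any 1 library other than CTRL replicate 2, those of PSAE2, PSAH1 and PSBO1 also without either LHS library, and that of PSAH1 also without either LHSR12 library. Without CTRL replicate 2 PSBO2, PSBQ1, PSBX and ATPC1 were called as well. PSAD1, PSAD2, PSAE1, PSAF, PSAG, PSAH2, PSAK, PSAN, PSAO, PSBP1 and PSBQ2 were called lower after 84 h with each of the 8 libraries left out in turn. These comparisons share the CTRL libraries, so they are not independent of each other.

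**Figure D1:**
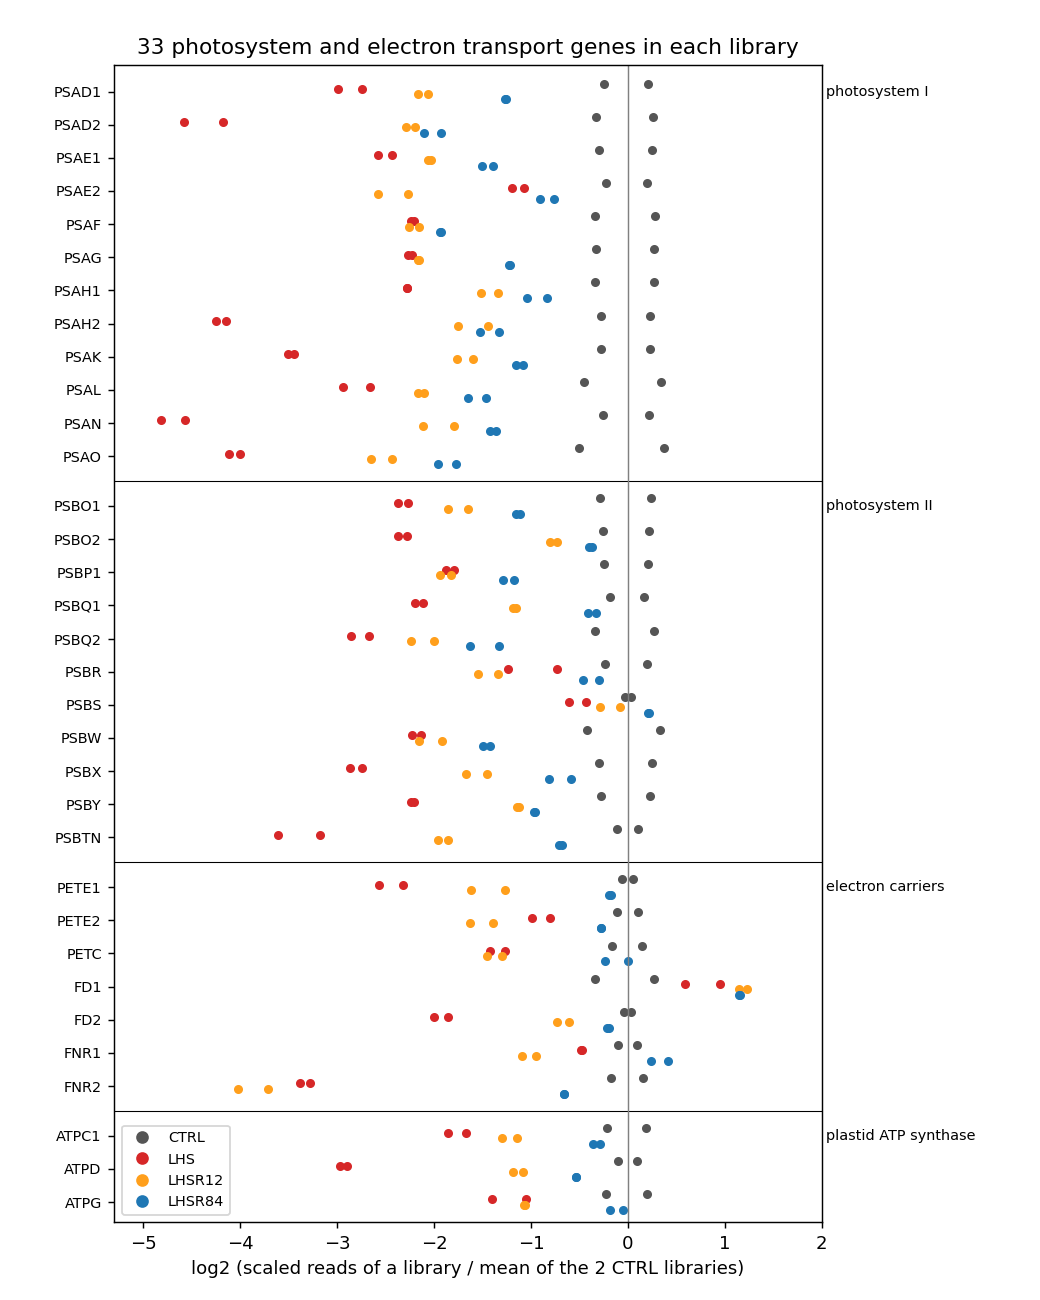
Each row is 1 gene and each point 1 library, placed at the log2 ratio of its scaled reads to the mean of the 2 CTRL libraries (x axis, log2 units), with grey for CTRL, red for LHS, orange for LHSR12 and blue for LHSR84. All 12 photosystem I genes lie left of CTRL in the 3 other groups, and FD1 alone lies right of CTRL in all 3.

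The summed RNA of the 33 genes made up 5.61% and 4.47% of the scaled reads at gene loci in CTRL, 1.4% and 1.56% in LHS, 1.86% and 2.07% in LHSR12 and 3.48% and 3.41% in LHSR84. Each later group was above the one before it from LHS on, and none reached a CTRL library. PSBR alone gave 358586 and 265367 of the 1435799 and 1063153 summed scaled reads in CTRL. In LHS it gave 131924 and 187421 of 355470 and 419458, so these shares follow PSBR more than any other gene. The photosystem I genes took 1.43% and 1.04% in CTRL, 0.162% and 0.160% in LHS, and 0.500% and 0.530% in LHSR84. The electron carriers, at 0.747% and 0.701% in CTRL and 0.752% and 0.724% in LHSR84, overlapped between those groups. In whole seedlings, fewer green cells and less of this RNA per green cell cannot be told apart. Marker genes of root cell types also moved: their summed scaled reads were 102673 and 127373 in CTRL, 7197 and 7279 in LHS, 26983 and 28937 in LHSR12, and 105299 and 97416 in LHSR84. Most of that sum is PYK10, a beta-glucosidase gene, and the other 15 markers summed to 10152 and 10543 in CTRL, 1753 and 1615 in LHS, 3889 and 3923 in LHSR12, and 7481 and 8144 in LHSR84, below both CTRL libraries. Of these 16 markers 13 were lower in LHS, and none was higher. After 12 h of recovery 10 were lower and 2 higher, and after 84 h 2 were lower and 1 higher. The 6 markers of the stomatal lineage summed to 1905 and 1973 scaled reads in CTRL and 1173 and 1415 in LHS. Their sums were 1495 and 1583 in LHSR12, and 2241 and 2243 in LHSR84. The 8 seed markers summed to between 86.2 and 3322 scaled reads, highest in CTRL replicate 2. Of the stomatal markers 2 were lower in LHS, 3 were lower in LHSR12 and 1 was higher in LHSR84. Of the 7 seed markers above the filter 4, 4 and 3 were lower in those groups. Over all loci tested, 31.1% were called lower in LHS, 20.0% in LHSR12 and 4.87% in LHSR84. Called higher were 35.4%, 24.8% and 8.59%. The part of these cell types in the result was not tested.

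**Figure D2:**
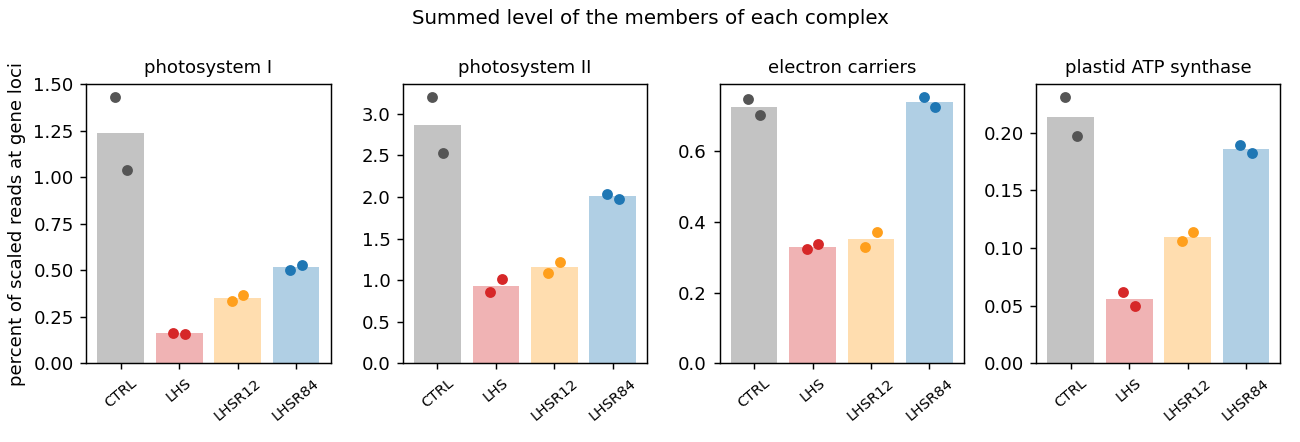
Each panel gives the summed level of the genes of 1 complex as a percent of the scaled reads at gene loci (y axis, from 0, a different scale in each panel), with a point for each library and a bar for the mean of the 2. Photosystem I went from 1.43% and 1.04% in CTRL to 0.500% and 0.530% in LHSR84, while the carriers were at 0.752% and 0.724% in LHSR84 against 0.747% and 0.701% in CTRL. In the photosystem II panel PSBR is the largest part, with 131924 and 187421 of 216526 and 272115 summed scaled reads in LHS.

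All 12 photosystem I genes were lower than CTRL at the end of heat, after 12 h and after 84 h of recovery. Their median log2 fold changes were −2.80, −2.09 and −1.39. PSAN (AT5G64040, chr5:25628521-25629708 on the minus strand of TAIR10.1), which encodes a lumenal subunit at the plastocyanin docking side, had 61813 and 44312 scaled reads in CTRL, 1881 and 2237 in LHS, 12252 and 15304 in LHSR12, and 20615 and 19841 in LHSR84. The LHS libraries are the lowest, and no group overlaps CTRL. Its log2 fold change in LHS was −4.67 (SE 0.19, adjusted p = 5.07e-07), which left 3.88% of the CTRL mean, the lowest share of any of the 33 genes at the end of heat. After 84 h it was at 38.1%.

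PSAD and PSAE lie on the stromal side, where ferredoxin docks. PSAD1 (AT4G02770) had 42612 and 31231 scaled reads in CTRL, 4637 and 5516 in LHS, 8812 and 8208 in LHSR12, and 15288 and 15415 in LHSR84. PSAD2 (AT1G03130) had 24570 and 16346 scaled reads in CTRL, 854 and 1130 in LHS, 4183 and 4473 in LHSR12, and 4751 and 5359 in LHSR84. In heat PSAD2 changed by −4.35 (SE 0.20, adjusted p = 7.89e-07) and PSAD1 by −2.85 (SE 0.17, adjusted p = 2.36e-06) on the log2 scale. PSAD2 was at 24.7% of CTRL after 84 h, the lowest of the 33, where its log2 fold change was −1.99 (SE 0.20, adjusted p = 0.000581). PSAE1 (AT4G28750) had 42754 and 29349 scaled reads in CTRL, 6053 and 6646 in LHS, 8656 and 8786 in LHSR12, and 12680 and 13758 in LHSR84. PSAE2 (AT2G20260) had 16577 and 12422 scaled reads in CTRL, 6339 and 6896 in LHS, 2423 and 3000 in LHSR12, and 7734 and 8572 in LHSR84, and its lowest libraries are those of LHSR12 and not of LHS.

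PSAF, a subunit that spans the membrane and takes part in plastocyanin binding, had small changes in both intervals of recovery. PSAF (AT1G31330) had 26296 and 17112 scaled reads in CTRL, 4584 and 4704 in LHS, 4547 and 4855 in LHSR12, and 5715 and 5644 in LHSR84, so that its libraries in heat and in early recovery overlap. Its log2 fold change from LHS to LHSR12 was 0.02 (SE 0.18, adjusted p = 0.944) and from LHSR12 to LHSR84 0.27 (SE 0.18, adjusted p = 0.278), neither called. The second was called when only LHSR12 and LHSR84 were fitted (adjusted p = 0.0473) and without CTRL replicate 1 (0.0364) or CTRL replicate 2 (0.0369). PSAG and PSAK are small membrane subunits on the flanks of the complex. PSAG (AT1G55670) had 36285 and 24010 scaled reads in CTRL, 6417 and 6242 in LHS, 6704 and 6786 in LHSR12, and 13019 and 12864 in LHSR84. PSAK (AT1G30380) had 22587 and 15907 scaled reads in CTRL, 1695 and 1771 in LHS, 5673 and 6375 in LHSR12, and 8642 and 9113 in LHSR84, with the lowest values in LHS and a called rise by 1.79 (SE 0.16, adjusted p = 3.03e-05) in the first 12 h of recovery.

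PSAH, PSAL and PSAO border the side of photosystem I where mobile light-harvesting complex II can bind. PSAH1 (AT3G16140) had 18130 and 11848 scaled reads in CTRL, 3094 and 3083 in LHS, 5251 and 5918 in LHSR12, and 7277 and 8400 in LHSR84. PSAH2 (AT1G52230) had 25548 and 17974 scaled reads in CTRL, 1230 and 1144 in LHS, 6452 and 7983 in LHSR12, and 7581 and 8669 in LHSR84, from which the LHS libraries stand out as the lowest by far. Their log2 fold changes in heat were −4.17 (SE 0.18, adjusted p = 5.81e-07) for PSAH2 and −2.25 (SE 0.19, adjusted p = 1.55e-05) for PSAH1. PSAL (AT4G12800) had 26613 and 15306 scaled reads in CTRL, 3314 and 2736 in LHS, 4667 and 4868 in LHSR12, and 6658 and 7574 in LHSR84. PSAO (AT1G08380) had 21444 and 11686 scaled reads in CTRL, 1036 and 954 in LHS, 2643 and 3070 in LHSR12, and 4263 and 4833 in LHSR84, and its CTRL libraries differ by a ratio of 1.84, the widest gap between them in the set.

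The 11 photosystem II genes were all lower at the end of heat, 10 were lower after 12 h and 6 after 84 h. Their median log2 fold changes were −2.20, −1.54 and −0.69. PSBO, PSBP and PSBQ encode the extrinsic proteins that stabilise the water-oxidising manganese cluster in the lumen. PSBO1 (AT5G66570) had 110239 and 76696 scaled reads in CTRL, 18035 and 19363 in LHS, 25799 and 29810 in LHSR12, and 42073 and 43295 in LHSR84. PSBO2 (AT3G50820) had 25794 and 18618 scaled reads in CTRL, 4293 and 4572 in LHS, 12725 and 13384 in LHSR12, and 17146 and 16829 in LHSR84. Both fell to 20.0% of CTRL in heat. The PSBO2 fall after 12 h, −0.75 (SE 0.16, adjusted p = 0.00589), was not called without LHSR12 replicate 1 (adjusted p = 0.0561), and after 84 h PSBO2 was at 76.5% and not called while PSBO1 was at 45.7% with −1.11 (SE 0.21, adjusted p = 0.0103).

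PSBP1 (AT1G06680) had 65440 and 47766 scaled reads in CTRL, 16267 and 15375 in LHS, 14718 and 15977 in LHSR12, and 23121 and 25105 in LHSR84. Its LHS and LHSR12 libraries overlap, and both groups lie below LHSR84. PSBQ1 (AT4G21280) had 19072 and 14908 scaled reads in CTRL, 3923 and 3707 in LHS, 7492 and 7656 in LHSR12, and 12761 and 13527 in LHSR84. PSBQ2 (AT4G05180) had 37168 and 24270 scaled reads in CTRL, 4832 and 4234 in LHS, 6499 and 7656 in LHSR12, and 9896 and 12198 in LHSR84. The groups fall in the same order in both, with LHS lowest, but after 84 h PSBQ1 was at 77.4% of CTRL and not called, and PSBQ2 at 36.0% with −1.45 (SE 0.21, adjusted p = 0.00318).

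PSBR, which encodes a small protein linked to the assembly of the extrinsic ones, had by far the highest level per length. Per kilobase of exon its mean was 397929 scaled reads in CTRL, where the median of the 33 genes was 21400, the next gene (PSBTN) was at 90382 and the lowest (PETE1) at 2688. PSBR (AT1G79040, chr1:29735952-29737009 on the plus strand) had 358586 and 265367 scaled reads in CTRL, 131924 and 187421 in LHS, 106415 and 123565 in LHSR12, and 253880 and 225629 in LHSR84. The LHS libraries are far apart, and in LHSR84 both lie under the lower CTRL library. Its log2 fold change in LHS was −0.97 (SE 0.34, adjusted p = 0.0329) and was not called with the pseudocount of 0.1, with edgeR, when only CTRL and LHS were fitted, without CTRL replicate 1 (adjusted p = 0.0667), without LHS replicate 1 (0.235) or 2 (0.0695), or without LHSR12 replicate 1 (0.0750) or 2 (0.0745). In LHSR12 it was −1.43 (SE 0.34, adjusted p = 0.00943), and it was not called without LHSR12 replicate 1 (adjusted p = 0.0922) or without LHSR12 replicate 2 (adjusted p = 0.0591).

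PSBS, the sensor of lumen acidity that sets off thermal dissipation of absorbed light, changed least in heat among the photosystem II genes. PSBS (AT1G44575) had 19006 and 18269 scaled reads in CTRL, 13800 and 12245 in LHS, 15268 and 17654 in LHSR12, and 21728 and 21531 in LHSR84. The LHS libraries are the lowest and the LHSR84 libraries the highest, above both CTRL libraries. In heat its log2 fold change was −0.52 (SE 0.14, adjusted p = 0.00996), not called without LHS replicate 2 (adjusted p = 0.0674), and after 84 h it was 0.22 (SE 0.14, adjusted p = 0.378), not called.

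The low-mass subunits PSBW, PSBX, PSBY and PSBTN kept the order CTRL, LHSR84, LHSR12, LHS in their group means. PSBW (AT2G30570) had 46678 and 27658 scaled reads in CTRL, 8465 and 7951 in LHS, 8317 and 9863 in LHSR12, and 13219 and 13874 in LHSR84. PSBX (AT2G06520) had 30415 and 20800 scaled reads in CTRL, 3497 and 3834 in LHS, 8043 and 9352 in LHSR12, and 14584 and 17033 in LHSR84. PSBY (AT1G67740) had 30318 and 21391 scaled reads in CTRL, 5607 and 5465 in LHS, 11710 and 11840 in LHSR12, and 13177 and 13292 in LHSR84. In these 3 genes no library of another group reached CTRL. PSBTN (AT3G21055) had 77409 and 66298 scaled reads in CTRL, 5884 and 7948 in LHS, 19911 and 18417 in LHSR12, and 43999 and 44867 in LHSR84, with the largest fall in heat of the photosystem II genes, −3.39 (SE 0.18, adjusted p = 1.57e-06), and a further called rise of 1.21 (SE 0.18, adjusted p = 0.00148) between 12 h and 84 h.

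The 7 electron carriers split. In LHS and in LHSR12, 6 were lower and FD1 was higher, and after 84 h only FNR2 was called lower and FD1 higher, with 5 not called. Plastocyanin, the copper protein between cytochrome b6f and photosystem I, has 2 genes here. PETE1 (AT1G76100), the minor one, had 2934 and 2701 scaled reads in CTRL, 476 and 563 in LHS, 920 and 1174 in LHSR12, and 2505 and 2471 in LHSR84. PETE2 (AT1G20340) had 68678 and 58962 scaled reads in CTRL, 32138 and 36632 in LHS, 20679 and 24388 in LHSR12, and 52783 and 52576 in LHSR84, and its lowest libraries are those of LHSR12. PETC (AT4G03280), for the Rieske iron-sulfur protein of cytochrome b6f, had 18876 and 15303 scaled reads in CTRL, 6367 and 7077 in LHS, 6254 and 6958 in LHSR12, and 17076 and 14559 in LHSR84. In PETC the LHS and LHSR12 libraries overlap, and LHSR84 overlaps CTRL.

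Ferredoxin carries electrons from photosystem I to FNR and other stromal acceptors. FD1 (AT1G10960, chr1:3664187-3665040 on the plus strand) had 5705 and 8706 scaled reads in CTRL, 10813 and 13945 in LHS, 16019 and 16951 in LHSR12, and 16017 and 16087 in LHSR84. The lowest libraries are those of CTRL, and no other group overlaps them. Its log2 fold change was 0.80 (SE 0.21, adjusted p = 0.00829) in LHS, 1.23 (SE 0.21, adjusted p = 0.00164) in LHSR12 and 1.19 (SE 0.21, adjusted p = 0.0071) in LHSR84. The rise in LHS was not called without LHS replicate 2 (0.62, adjusted p = 0.101), nor that in LHSR84 without LHSR84 replicate 1 (1.19, adjusted p = 0.0627) or without LHSR84 replicate 2 (1.18, adjusted p = 0.0600). FD1 shares 78 bases of exon on the same strand with AT1G10950, whose scaled reads were 2678 and 2432 in CTRL, 3599 and 3290 in LHS, 2620 and 2600 in LHSR12, and 2205 and 2246 in LHSR84. That neighbour rose in LHS (log2 fold change 0.43, adjusted p = 0.00454) and was not called in LHSR12 (0.03) or LHSR84 (−0.20), and its part in the FD1 values was not tested. FD2 (AT1G60950), the other leaf-type ferredoxin gene, had 15735 and 14990 scaled reads in CTRL, 3835 and 4243 in LHS, 9276 and 10106 in LHSR12, and 13470 and 13211 in LHSR84. Its libraries in LHS are the lowest, where its log2 fold change was −1.93 (SE 0.12, adjusted p = 2.47e-06), and after 84 h it was at 86.8% of CTRL.

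The genes of the leaf FNR isoforms behaved unlike each other. FNR1 (AT5G66190), whose product helps to anchor FNR to the thylakoid, had 36558 and 31906 scaled reads in CTRL, 24437 and 24718 in LHS, 16043 and 17771 in LHSR12, and 45627 and 40536 in LHSR84. FNR2 (AT1G20020, chr1:6942625-6945091 on the plus strand) had 42770 and 34178 scaled reads in CTRL, 3965 and 3695 in LHS, 2364 and 2938 in LHSR12, and 24372 and 24393 in LHSR84. In both the LHSR12 libraries are the lowest, and in FNR1 the LHSR84 libraries are above both CTRL libraries. The log2 fold change of FNR2 was −3.32 (SE 0.15, adjusted p = 7.87e-07) in LHS and −3.86 (SE 0.15, adjusted p = 9.93e-07) in LHSR12, which left 6.89% of CTRL, the lowest share of the 33 genes at that time. From LHSR12 to LHSR84 it rose by 3.21 (SE 0.15, adjusted p = 7.50e-06), the largest rise of the set in that interval. FNR1 fell by 0.47 in LHS (SE 0.16, adjusted p = 0.0275), which was not called without CTRL replicate 1 (0.0658), LHS replicate 1 (0.0983) or LHS replicate 2 (0.0921), nor with edgeR (0.0654), and was at 126% of CTRL after 84 h, not called.

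The 3 genes of the chloroplast ATP synthase were lower in LHS and in LHSR12, and ATPD alone was still called lower after 84 h. Their median log2 fold changes were −1.75, −1.13 and −0.31. ATPC1 (AT4G04640), for the gamma subunit of the rotor, had 26136 and 19890 scaled reads in CTRL, 7216 and 6335 in LHS, 9364 and 10437 in LHSR12, and 18805 and 17986 in LHSR84. ATPD (AT4G09650), for the delta subunit on the head, had 18190 and 15878 scaled reads in CTRL, 2289 and 2168 in LHS, 7496 and 8049 in LHSR12, and 11770 and 11722 in LHSR84. ATPG (AT4G32260), for a subunit of the peripheral stalk, had 14860 and 11093 scaled reads in CTRL, 6274 and 4908 in LHS, 6222 and 6191 in LHSR12, and 12525 and 11442 in LHSR84. ATPD had the lowest share in heat, 13.1% of CTRL, with −2.93 (SE 0.12, adjusted p = 4.43e-07), and rose by 1.80 (SE 0.12, adjusted p = 5.29e-06) in the first 12 h of recovery.

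Over the first 12 h of recovery 19 of the 33 genes rose from LHS and 4 fell, with 10 not called, beside 31.1% of all loci higher and 31.1% lower. The median log2 fold change was 0.64, beside 0.00 over all loci. The largest rises were those of PSAN at 2.74 (SE 0.19, adjusted p = 7.76e-06), PSAH2 at 2.60 (SE 0.18, adjusted p = 7.83e-06) and PSAD2 at 2.14 (SE 0.20, adjusted p = 3.69e-05). The rises numbered 15 at an adjusted p of 0.01, 17 with the pseudocount of 0.1 and 21 with TMM scaling. Those of PSAL and PSBO1 (0.66 and 0.57) were not called with that pseudocount. Without 1 LHS or LHSR12 library, the change was 0.52 to 0.80 for PSAL, 0.47 to 0.67 for PSBO1 and 0.52 to 0.76 for PSBQ2. The 4 that went on falling were PSAE2, PETE2, FNR1 and FNR2. PSAE2 fell by 1.29 (SE 0.17, adjusted p = 0.000202), and PETE2, FNR1 and FNR2 changed by −0.61, −0.54 and −0.54. The calls of PETE2, FNR1 and FNR2 were lost when libraries were scaled by their total, and without LHS replicate 1, LHS replicate 2 or LHSR12 replicate 1, which left PSAE2 alone. Group means were lowest in LHS for 25 genes, in LHSR12 for 7 (PSAE2, PSBP1, PSBR, PETE2, PETC, FNR1 and FNR2) and in CTRL for FD1. For PSBP1 and PETC the difference between LHS and LHSR12 was not called, at −0.04 and −0.03, and changed sign with scaling by total.

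Between 12 h and 84 h of recovery 22 genes rose, 0 fell and 11 were not called, beside 16.5% of all loci higher and 19.5% lower. The median was 0.64, beside −0.08 over all loci. No fall was called with edgeR or DESeq2 on the reads either. Of the carriers 6 of 7 rose, with a median of 1.26, and of the ATP synthase genes 3 of 3, with a median of 0.90. Of the photosystem I genes 6 of 12 rose, with a median of 0.57, and PSAD2, PSAF and PSAH2 changed by 0.22, 0.27 and 0.18 without a call. The number that rose was 12 without LHSR12 replicate 1, 14 without LHSR12 replicate 2, 14 without LHSR84 replicate 1 and 13 without LHSR84 replicate 2, but 29 without either CTRL library or when only LHSR12 and LHSR84 were fitted. Of the photosystem I genes it was 2 without LHSR12 replicate 1, when PSAE1, PSAG, PSAK and PSAN were lost, 2 without LHSR12 replicate 2, 3 without any 1 library of LHS or LHSR84, and 10 without either CTRL library, when PSAF, PSAH1, PSAL and PSAO were gained. The difference between the complexes was not tested.

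In 8 pairs of related genes the balance between the copies was compared across the 4 groups, and a difference was called in 7. Pairs of other genes were not tested, so this count is not shown to be particular to these pairs. The test was an exact permutation test of the log2 ratio over the 8 libraries, two-sided, whose smallest possible p is 0.00952, adjusted over the 8 pairs. PSAD1 over PSAD2 was 0.79 and 0.93 in CTRL, 2.44 and 2.29 in LHS, 1.07 and 0.88 in LHSR12, and 1.69 and 1.52 in LHSR84, in log2 units (adjusted p = 0.0305). The ratio was highest in heat. PSAH1 over PSAH2 went from −0.49 and −0.60 in CTRL to 1.33 and 1.43 in LHS, and was at −0.30 and −0.43 in LHSR12 and −0.06 and −0.05 in LHSR84 (adjusted p = 0.0254). PSAE1 over PSAE2 was 1.37 and 1.24 in CTRL, −0.07 and −0.05 in LHS, 1.84 and 1.55 in LHSR12, and 0.71 and 0.68 in LHSR84 (adjusted p = 0.0254). In that pair the LHSR12 libraries are the highest and the LHS libraries the lowest.

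Ferredoxin and FNR showed the widest swings. FD1 over FD2 was −1.46 and −0.78 in CTRL, 1.5 and 1.72 in LHS, 0.79 and 0.75 in LHSR12, and 0.25 and 0.28 in LHSR84 (adjusted p = 0.0254), positive in all 6 libraries of the heated groups and negative in both CTRL libraries. FNR1 over FNR2 was −0.23 and −0.10 in CTRL, 2.62 and 2.74 in LHS, 2.76 and 2.60 in LHSR12, and 0.90 and 0.73 in LHSR84 (adjusted p = 0.0327). That pair kept its heat ratio through 12 h of recovery, with overlapping libraries.

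PSBO1 over PSBO2 was 2.1 and 2.04 in CTRL and 2.07 and 2.08 in LHS, and lower in recovery, at 1.02 and 1.16 in LHSR12 and 1.3 and 1.36 in LHSR84 (adjusted p = 0.0327). PSBQ1 over PSBQ2 had group means of −0.83, −0.25, 0.10 and 0.26 (SD 0.18, 0.08, 0.14 and 0.15, n = 2 each, exact permutation adjusted p = 0.0305) in CTRL, LHS, LHSR12 and LHSR84, and was not called without LHS replicate 1 (adjusted p = 0.0544). PETE1 over PETE2 was lowest in LHS, at −6.08 and −6.02, against −4.55 and −4.45 in CTRL, and was not called (adjusted p = 0.0667), although it was without LHSR12 replicate 1 (adjusted p = 0.0381). The mean PETE1 over PETE2 ratio differed from CTRL by −1.55 in LHS, 0.07 in LHSR12 and 0.09 in LHSR84. Where 1 group stands apart, groupings that keep its libraries together can score as high in this test. The missing call therefore does not show that the balance of this pair held. Coding sequences within pairs are 75% to 88% identical and their longest identical runs are 17 to 35 bases. How reads with several matches were counted is not given.

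**Figure D3:**
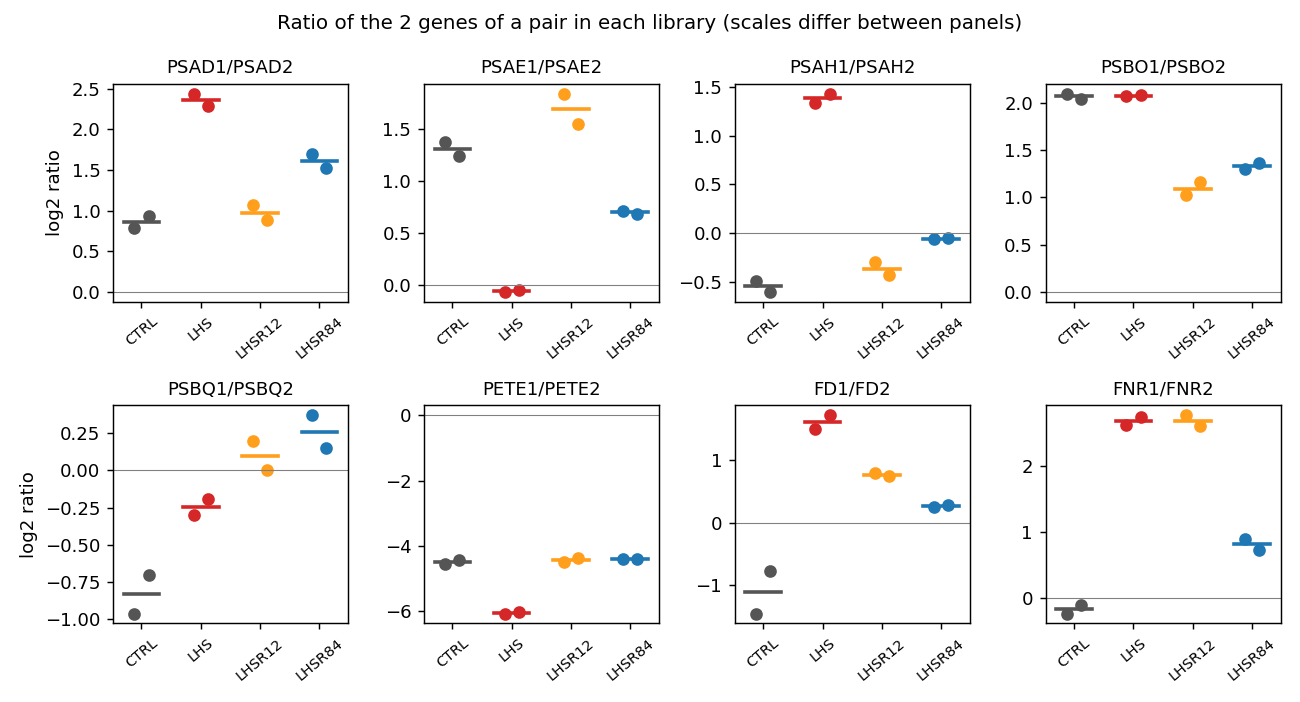
Each panel is 1 pair of related genes and gives the log2 ratio of their scaled reads (y axis, log2 units, a different scale in each panel) for each library as a point, with a line at the mean of the 2 libraries of a group. The FNR1/FNR2 ratio stands at 2.62 and 2.74 in LHS and 2.76 and 2.60 in LHSR12 against −0.23 and −0.10 in CTRL, and the FD1/FD2 ratio changes sign between CTRL and the other groups.

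The 250 bases before the annotated start of each gene were searched on both strands for short motifs known from plant promoters. They include motifs of light-regulated and of heat-regulated promoters. The G-box, with the letters CACGTG, bound by HY5 and PIF factors, was found in 6 of 33 windows (18.2%), against 6.49% of 27443 windows of the same length over the annotation. The I-box, with the letters GATAAG, was in 9 (27.3%), against 12.3%. A motif bound by GLK factors, written CCAATC, was in 4 (12.1%), against 10.2%. A core of the heat shock element, GAANNTTC, was in 1 (3.03%), that of FD1, against 9.55%. The evening element, AAAATATCT, was in the ATPC1 window, 3.03% against 2.36%, and the CCA1-binding site, AAAAATCT, in those of PSAN and PSAO, 6.06% against 6.69%. The searched letters of these motifs do not overlap in the windows printed here. In 16 windows none of these letters was found, which says nothing about the factors. Of the windows with a G-box, all but that of PSBQ2 overlap exons of another gene. Of those with an I-box, PSAH2, PETE2, FNR1 and ATPG do, and PSAD1, PSAF, PSAK, PSBQ2 and PETC do not. Such overlap was not counted over the annotation, and its part in these shares was not tested.

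Windows are printed for PSBQ2, which had the most matches (4), and for PETC, a carrier with 2. The window of FNR2, the carrier with the lowest share of CTRL after 12 h and no match, is printed too. None of these overlaps exons of another gene. For FD1 only the 30 bases around its match are printed, since its window overlaps exons of AT1G10950. The printed sequences come from the TAIR10.1 assembly in RefSeq, in the direction of the gene, with matches in capitals. The PSBQ2 window is chr4:2673244-2673493 on the minus strand, with the GLK-type motif first, then the G-box at 2 places and the I-box, each read on either strand. The PETC window is chr4:1439896-1440145 on the plus strand, with the I-box and then the GLK-type motif. The FNR2 window is chr1:6942375-6942624 and the FD1 stretch chr1:3664026-3664055, both on the plus strand, and the FD1 match starts 150 bases before the gene.
PSBQ2: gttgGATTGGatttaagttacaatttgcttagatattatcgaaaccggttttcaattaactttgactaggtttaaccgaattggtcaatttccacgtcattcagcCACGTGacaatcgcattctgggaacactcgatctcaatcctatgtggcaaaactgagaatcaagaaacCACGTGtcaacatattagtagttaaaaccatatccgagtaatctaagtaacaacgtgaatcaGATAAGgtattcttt
PETC: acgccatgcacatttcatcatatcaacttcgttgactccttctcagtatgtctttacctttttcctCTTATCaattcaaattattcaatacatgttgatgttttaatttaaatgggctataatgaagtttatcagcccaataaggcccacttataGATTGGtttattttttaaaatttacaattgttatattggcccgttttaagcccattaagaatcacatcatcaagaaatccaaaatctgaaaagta
FNR2: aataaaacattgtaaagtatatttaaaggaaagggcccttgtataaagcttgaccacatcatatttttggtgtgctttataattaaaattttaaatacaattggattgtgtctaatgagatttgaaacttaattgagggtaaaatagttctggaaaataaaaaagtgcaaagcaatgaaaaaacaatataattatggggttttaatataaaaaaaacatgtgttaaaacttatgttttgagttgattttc
FD1: agtccttctaaGAAAATTCtgactcaagtc

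The rest of the pathway was read from 9 further lists of named genes. Their counts stand beside shares over all loci of 31.1% lower and 35.4% higher in LHS, and 20.0% and 24.8% in LHSR12. In LHSR84 the shares were 4.87% lower and 8.59% higher, and between 12 h and 84 h 19.5% and 16.5%. The light-harvesting antenna, which feeds both photosystems, had 19 of 21 genes lower in LHS, 18 lower and 1 higher in LHSR12, and 17 lower and 1 higher in LHSR84, with medians of −3.39, −1.82 and −2.63. The antenna took 8.42% and 5.36% of scaled reads at gene loci in CTRL, 0.541% and 0.643% in LHS, 1.39% and 1.63% in LHSR12 and 1.04% and 1.2% in LHSR84. Between 12 h and 84 h 10 antenna genes fell and 6 rose, where 0 of the 33 subunit and carrier genes fell and 22 rose. The difference between the lists was not tested. LHCB1.1 was the antenna gene with the largest fall after 84 h, at −6.35 (SE 0.35, adjusted p = 3.45e-05), and LHCB4.3 rose by 3.03 (SE 0.29, adjusted p = 0.000456).

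The Calvin-Benson cycle, which uses the ATP and NADPH, had 18 of 20 genes lower in LHS (median −1.34), 15 lower and 1 higher in LHSR12 (−0.78), and 5 higher and 0 lower in LHSR84 (0.27). CP12-2, a redox-regulated linker of cycle enzymes, fell by 4.76 in LHS (SE 0.13, adjusted p = 1.37e-07) and was higher by 1.21 in LHSR84 (SE 0.13, adjusted p = 0.00076). The NDH complex, which runs cyclic electron flow around photosystem I, had 4 of 5 nuclear genes lower and NDHO higher in LHS, 3 lower in LHSR12, and 3 higher and 0 lower in LHSR84. NDHM went from −3.32 in LHS (adjusted p = 3.91e-07) to 1.05 in LHSR84 (adjusted p = 0.00134).

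Other genes of electron transport and photoprotection moved both ways, with 12 of 23 lower and 4 higher in LHS, 9 lower and 8 higher in LHSR12, and 3 lower and 3 higher in LHSR84. RFNR1, a root-type FNR, had 608 and 892 scaled reads in CTRL, 2627 and 3111 in LHS, 1508 and 1608 in LHSR12, and 1037 and 1066 in LHSR84. It rose by 1.95 in LHS (SE 0.17, adjusted p = 1.97e-05). RFNR2, the other root-type FNR gene of the list, chosen for mention after its values were seen, fell by 2.22 in LHS (SE 0.20, adjusted p = 2.33e-05), with 1589 and 2425 scaled reads in CTRL and 471 and 374 in LHS. ELIP1 and ELIP2 encode early light-induced proteins. ELIP1 had the largest called rise of this list in LHS, 2.42 (SE 0.29, adjusted p = 0.00011). In LHSR12 ELIP1 was higher by 3.49 (SE 0.29, adjusted p = 3.51e-05). ELIP2 was at 51.5 and 67.6 scaled reads in CTRL, 22.0 and 36.5 in LHS, and 1698 and 1769 in LHSR12. It rose over CTRL by 4.85 in LHSR12 (SE 0.27, adjusted p = 4.26e-06) and by 1.05 in LHSR84 (SE 0.27, adjusted p = 0.0332). CURT1B, which bends grana margins, fell by 3.35 in LHS (SE 0.18, adjusted p = 1.51e-06).

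Genes that assemble the photosystems were lower in 8 of 13 cases in LHS, 11 in LHSR12 and 2 in LHSR84, and none was called higher in these 3 comparisons. CGL160, an assembly factor of the ATP synthase, fell by 2.44 in LHSR12 (SE 0.14, adjusted p = 5.09e-06). Of the 7 proteases that repair photosystem II, 4 were lower in LHS, 3 lower and 1 higher in LHSR12, and 0 called in LHSR84. FTSH8, a thylakoid protease, was the one higher, by 1.5 (SE 0.18, adjusted p = 0.00023). Of the 16 chlorophyll synthesis genes 15 were lower in LHS, 10 lower and 3 higher in LHSR12, and 6 lower in LHSR84, with PORB at −6.79 in LHSR12 (SE 0.12, adjusted p = 1.37e-07).

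**Figure D4:**
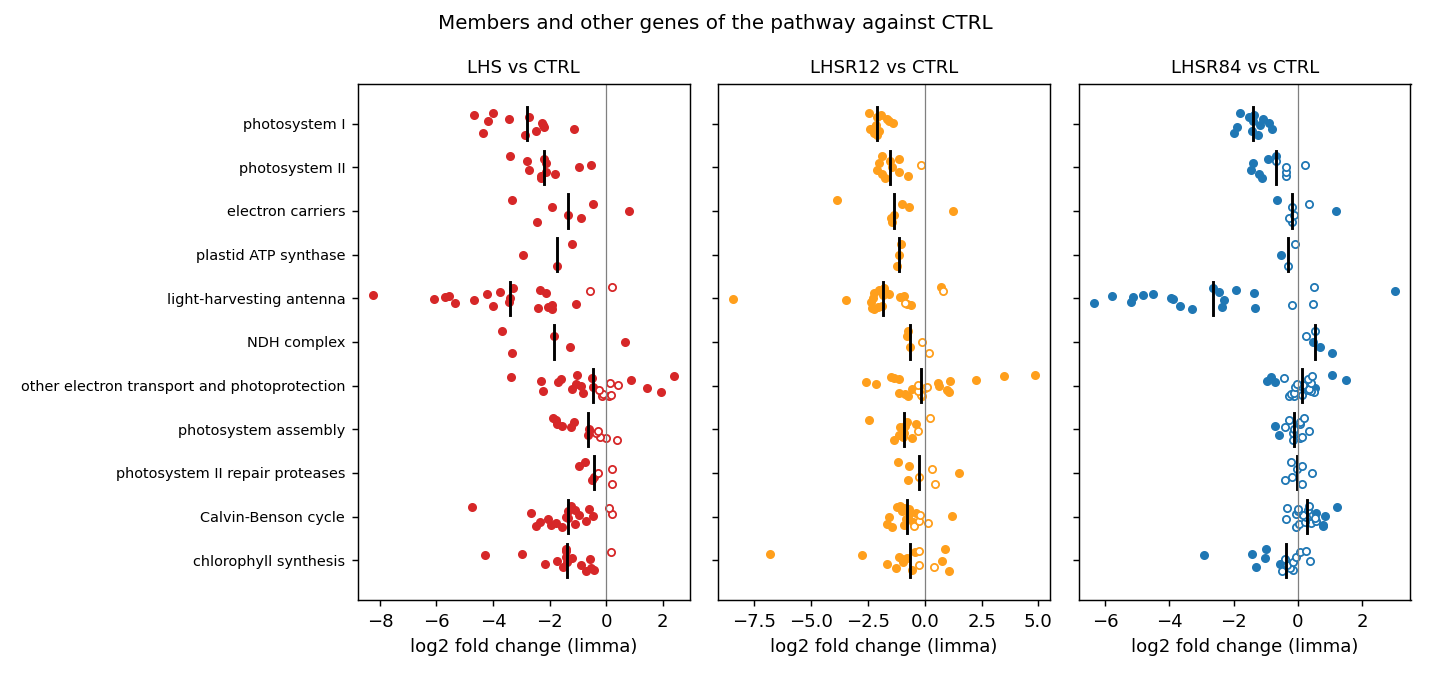
Each point is the log2 fold change (x axis, limma, a different scale in each panel) of 1 gene against CTRL, filled where called and open where not, for the 4 groups of subunit and carrier genes at the top and 7 other lists below, with a black line at the median of each list. In LHSR84 the medians run from −2.63 for the antenna and −1.39 for photosystem I to 0.27 for the Calvin-Benson cycle and 0.54 for the NDH complex.

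Among 15 regulators of photosynthesis genes, 9 were lower and 2 higher in LHS, 2 lower and 7 higher in LHSR12, and 3 lower and 5 higher in LHSR84. GLK1, an activator of nuclear photosynthesis genes, had 3010 and 2982 scaled reads in CTRL, 2009 and 2126 in LHS, 5447 and 4714 in LHSR12, and 3231 and 3117 in LHSR84. It was lower than CTRL in LHS (−0.54, adjusted p = 0.00189) and higher in LHSR12 (0.76, adjusted p = 0.000549), when 31 of the 33 genes were below CTRL. The part of GLK1 in the level of the 33 genes was not tested. GLK2 was not called in any comparison with CTRL, at −0.14, 0.40 and 0.22. HYH, a homologue of the light-response factor HY5, rose by 1.00 in LHS, 3.44 in LHSR12 and 1.89 in LHSR84 (adjusted p = 0.000664, 1.92e-06 and 0.000291), and HY5 was not called, at −0.04, −0.20 and 0.56. PIF4, a growth regulator that responds to light and temperature, was lower in all 3 groups, at −4.56, −1.54 and −5.17 (adjusted p = 3.25e-06, 0.00296 and 3.88e-05). Of the 6 sigma factors, which direct the plastid polymerase to chloroplast genes, 3 were lower in LHS, 3 lower and 2 higher in LHSR12, and 0 called in LHSR84. SIG5 had the largest rise in LHSR12, by 2.46 (SE 0.17, adjusted p = 1.32e-05). Over all loci 31.1% were lower and 35.4% higher in LHS, 20.0% and 24.8% in LHSR12, and 4.87% and 8.59% in LHSR84.

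Exons of 9 of the 33 genes overlap those of a gene on the other strand, by 39 to 693 bases: PSAE1, PSAE2, PSAG, PSAH1, PSAH2, PSAN, PSBP1, PSBR and FNR1. Whether counting used the strand is not given, and where it did not, reads of the partners cannot be told apart. Of the genes in pairs, the overlap is 693 bases for PSAH1, 174 for PSAH2, 272 for PSAE1, 63 for PSAE2 and 191 for FNR1. Its part in the ratios of these pairs was not tested. PSAD2, PSBP1 and FD1 share 2, 22 and 78 bases with a gene on the same strand.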

How the data were processed

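Strand-specific RNA libraries were made from TRIzol-extracted total RNA of whole seedlings, per the labels. The submitters' processing notes list the build TAIR10, the tool CASAVA, and STAR (2.5.3a), DESeq2 (1.14.1) and HTSeq (0.9.1), with no roles. The deposited table gives a signal for each locus and library, without coordinates. In 7 libraries 100% of nonzero values were whole multiples of 1 step (tolerance 0.001), so each deposited signal is whole reads over a factor of its library. In LHS replicate 1 the step is too close to 1 to recover reads.

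Loci with a mean of at least 1 (27638, of which 24624 are gene loci) were fitted with limma-trend 3.58.1 in R 4.3.3 on log2 of the value plus a pseudocount of 1. All 8 libraries entered 1 fit without covariates, with two-sided tests and Benjamini-Hochberg adjustment over all loci, called below 0.05. This scale understates changes of low genes. The steps were tested on simulated data. The planned count test was not the main one, since the table holds scaled values. Gene positions, exon lengths and promoter windows come from TAIR10.1, matched by locus.

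Members, gene lists, pairs and markers were chosen with earlier results of these data known, and patterns in them are no independent support. All 33 members are named. Of each other list, those eligible for naming were the 2 largest called rises and falls in each comparison with CTRL, and any regulator. As alternatives, the fit was repeated with each library left out, the replicate number as a block, only the pair of groups at issue, no filter, a pseudocount of 0.1, and TMM or gene-locus scaling. Stricter calls used an adjusted p of 0.01 or at least 2-fold, shares were taken without rRNA loci, and the reads of 7 libraries were tested with DESeq2 1.42.0 and edgeR 4.0.16 (where the lone LHS library is assumed to vary like the other groups). Scaling by total and leaving libraries out of the pair ratios were chosen after the data were seen.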

Additional observations from a re-analysis of the deposited data

How the results depend on the processing

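No called log2 fold change of the 33 genes changed sign under any alternative run. Genes higher in LHS than in CTRL numbered 0 with a minimum of 2-fold, and 0 to 1 with a library left out. Genes lower in LHSR84 than in CTRL numbered 11 to 24 with a library left out (20 with all), and those higher 0 to 1. From LHS to LHSR12 the falls numbered 1 at an adjusted p of 0.01, 1 at 2-fold, 1 with scaling by total and 1 to 4 with a library left out (4 with all), and the rises 12 at 2-fold. From LHSR12 to LHSR84 the rises numbered 14 at an adjusted p of 0.01, 8 at 2-fold and 12 to 29 with a library left out (22 with all). The adjusted p of the pair PSBQ1/PSBQ2 lay between 0.0254 and 0.0544 with a library left out, and that of PETE1/PETE2 between 0.0381 and 0.114. Fewer samples or a stricter rule are part of these alternatives, and for scaling by total the cause was not tested. Scaling by total moved the median of all loci from 0.08 to 0.26 in LHSR12 against CTRL and from 0.00 to 0.26 in LHSR12 against LHS. The share of calls that were higher went from 55.3% to 67.2% in LHSR12 against CTRL, from 63.8% to 75.1% in LHSR84 against CTRL and from 50% to 61.5% in LHSR12 against LHS.

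With the replicate number as a replicate block, the genes lower than CTRL numbered 32, 31 and 19 in LHS, LHSR12 and LHSR84, and 1 was higher in each. From LHS to LHSR12, 18 rose and 4 fell, and from LHSR12 to LHSR84 18 rose. The numbers did not pair the samples, since the correlations of replicate differences lay between −0.061 and 0.04. Each group has 2 libraries, which limits the precision of every value.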
